A study of Mus musculus with 9 samples.

Results

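Of the 14236 circRNAs on the array, 7 were higher in livers with unprotected ischemia-reperfusion injury (IRI) than in sham livers and in livers given ischemic preconditioning (IPC) before the injury. They were chosen by the deposited log2 values, from the circRNAs that 3 or more of the 9 arrays detected well above background. Their 3 IRI values all lay above the 6 sham and IPC values, and their IRI mean lay 0.585 (1.5-fold) or more above both other means. The choice therefore used the comparisons of IRI with sham and of IRI with IPC, and their values are given below as a description. Only IPC vs. sham was not part of the rule, and it is the comparison that was tested, although the rule left out any circRNA that IPC or sham arrays brought up to the IRI level.

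CircRNAs are made when the spliceosome joins the end of an exon back to an upstream splice site, which closes the RNA into a loop. Without free ends they resist exonucleases, so that RNase R, which digests linear RNA, enriches them and so that they last longer in cells than most linear transcripts. Some circRNAs bind miRNAs or proteins, and most have no known function. In the liver, IRI is the damage that follows when blood flow is stopped and then restored, with oxidative stress, hepatocyte death and infiltration of neutrophils, and a short cycle of ischemia and reperfusion beforehand lessens that damage.

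The livers came from male C57BL/6 mice fasted before surgery. In the sham group (n = 3) the vessels to the liver (portal vein and hepatic artery) were dissected free and not clipped. The IRI group (n = 3) had 1 h of partial hepatic ischemia and 6 h of reperfusion. The IPC group (n = 3) had the same 1 h and 6 h after a first, short cycle of 10 min without flow and 10 min with flow restored. All groups had a laparotomy under pentobarbital, the sham group had no clip at any time, and no group had IPC without the later injury. Genotype was the same in all groups, and no age of the mice is stated in these sources. The RNA was treated with RNase R and hybridized with a single dye to 1 array per liver sample.

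The files used here name circRNAs by the array maker's IDs, each with 1 spot, and pair no ID with a circRNA name, host gene or sequence. The 7 circRNAs are therefore numbered here by the smaller of their differences (IRI minus sham, IRI minus IPC), from the largest down. CircRNA 1 is ASCRP4000025 and circRNA 2 is ASCRP4012694. Their genome positions and host genes were not analysed here, and the liver label could not be checked against markers of liver cells.

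The arrays were read in 2 scans. Scan 1 held 6 arrays, 2 of each group, and scan 2 held sham replicate 1, IRI replicate 2 and IPC replicate 3. Between 46.8% and 63.3% of the circRNAs were well above background on a scan 1 array and 77.3% to 80.6% on a scan 2 array. Among the vendor's probes printed in 10 spots each, with levels in the range of the 7 circRNAs, log2 signals of the same probe had a median SD of 0.094 to 0.160 depending on the array. No circRNA spot was saturated.

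The deposited values of circRNA 1 were 5.87, 5.20 and 5.95 on the sham arrays, 7.05, 7.05 and 6.01 on the IRI arrays and 5.94, 5.79 and 5.92 on the IPC arrays, in the order of replicates 1 to 3 as in the sentences that follow. Its IRI mean was 2.04-fold above sham and 1.77-fold above IPC. On the processed signals its difference from sham was 1.52, and 1.11 without sham replicate 2, when that of circRNA 2 was larger at 1.26. IRI replicates 1 and 2 stood apart from the other 7 arrays, whereas IRI replicate 3 was only 0.061 above the highest of them, sham replicate 3. In whole-liver RNA, more of a circRNA per cell and more cells that carry it cannot be told apart, here or for the other circRNAs.

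CircRNA 2 had deposited values of 5.29, 5.30 and 5.49 in sham, 6.29, 6.46 and 5.61 in IRI and 5.56, 5.40 and 5.16 in IPC. Its probe was the dimmest of the 7, which ranks spots and not amounts of RNA. Again replicates 1 and 2 carried the difference, and IRI replicate 3 lay 0.052 above IPC replicate 1.

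CircRNA 3, whose probe was the brightest, had values of 7.98, 8.26 and 7.84 in sham, 8.83, 8.87 and 8.57 in IRI and 7.85, 8.08 and 7.63 in IPC. All 3 IRI arrays stood clear of the others, the lowest by 0.308. Its IRI mean was 1.66-fold above sham and 1.87-fold above IPC.

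CircRNA 4 had values of 6.97, 6.97 and 7.40 in sham, 7.87, 8.19 and 7.54 in IRI and 7.40, 7.19 and 6.86 in IPC. The sham and IPC arrays covered almost the same range, and the lowest IRI array was 0.141 above them.

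For circRNA 5 the values were 6.07, 5.96 and 5.90 in sham, 6.81, 7.12 and 6.12 in IRI and 5.94, 5.44 and 5.99 in IPC. Its sham arrays were close together, with an SD of 0.089, and IRI replicate 3 was 0.050 above the highest of them, the narrowest gap among the 7.

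The values of circRNA 6 were 6.21, 5.81 and 6.26 in sham, 6.69, 7.11 and 6.36 in IRI and 6.29, 6.00 and 5.92 in IPC. IRI replicate 3 was 0.069 above IPC replicate 1, and IRI replicate 2 was far above all other arrays.

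CircRNA 7 had values of 6.35, 6.49 and 6.48 in sham, 6.96, 7.24 and 6.99 in IRI and 6.14, 6.25 and 6.14 in IPC. It was the circRNA with the most even groups, with SDs of 0.080 in sham, 0.153 in IRI and 0.061 in IPC, and with the widest gap, 0.471 between the lowest IRI array and the highest other. Its groups did not overlap at all, since the IPC arrays also lay below every sham array. The IRI part of this separation came from the rule, and the IPC part was not counted over all circRNAs.

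**Figure D1:**
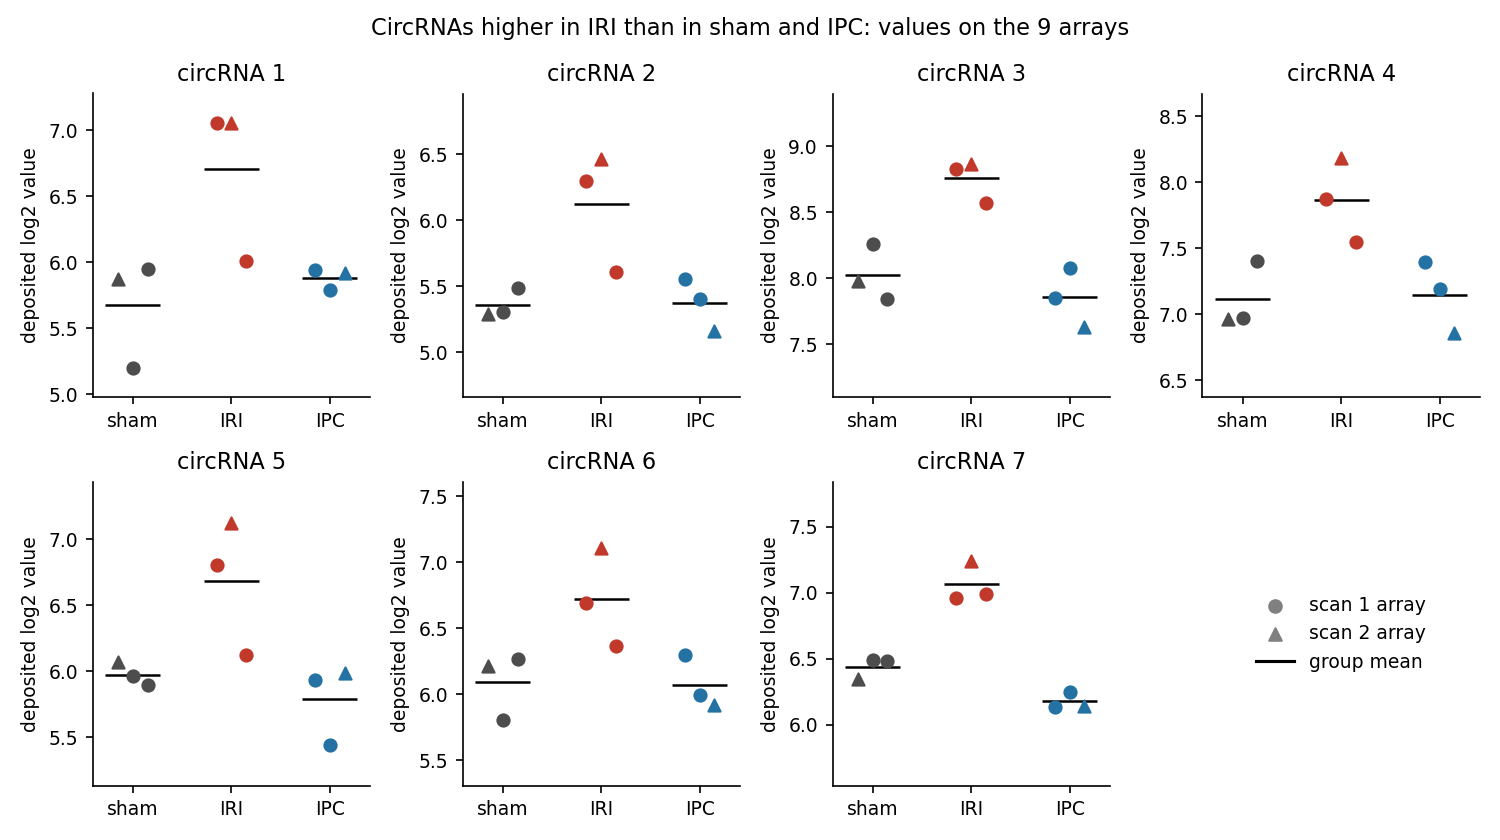
Deposited log2 values of the 7 circRNAs on the 9 arrays, each panel spanning the same height, with circles for scan 1, triangles for scan 2 and lines for group means. IRI replicate 2, the triangle of the IRI group, is the highest array in all 7 panels, and the lowest IRI point nearly touches the other groups for circRNAs 1, 2, 5 and 6.

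Over the 7 circRNAs, the IRI mean was 0.62 to 1.03 above the sham mean on the log2 scale, with a median of 0.73, and 0.65 to 0.90 above the IPC mean, with a median of 0.82. Over all 10536 circRNAs that passed the filter on background, the medians of these differences were -0.01 and 0.003. These values were used for the choice and are not evidence for it. CircRNAs with all IRI values above all sham and IPC values numbered 64, or 0.607% of the 10536. The other 57 of the 64 missed a limit on the means, with a smaller difference of 0.077 to 0.560 and a median of 0.278. Just inside the limit of 0.585 lay circRNA 7 with a smaller difference of 0.623 and circRNA 6 with 0.626. The nearest circRNAs outside had 0.560 and 0.555, both because of the difference from IPC.

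**Figure D2:**
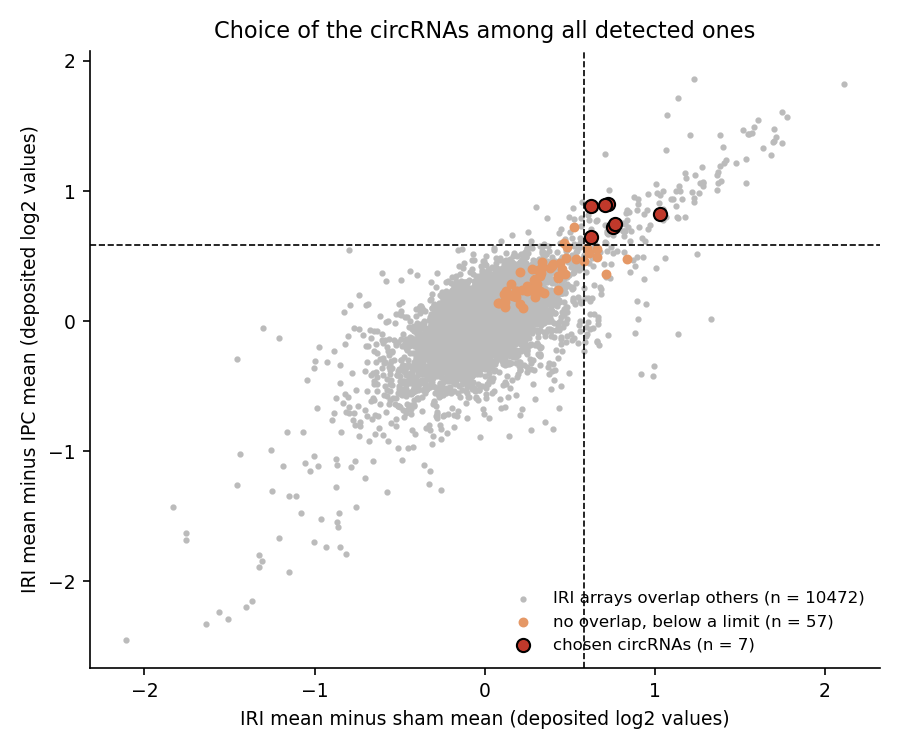
Difference of the IRI mean from the sham mean (horizontal) and from the IPC mean (vertical), on deposited log2 values, for the 10536 circRNAs above the filter, with dashed lines at 0.585. Both axes share the IRI arrays, so their joint slope is built in. The 7 chosen circRNAs are the red points, the orange points are the 57 without overlap that missed a limit, and grey points beyond both lines are circRNAs whose IRI arrays overlap the others.

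The limits on the means alone were met by 116 circRNAs. Of the 109 that were not chosen, 98 had IRI replicate 3 as their lowest IRI array, and for 92 of them IRI replicate 3 was the only IRI array that overlapped the sham and IPC arrays. The smaller difference of the 109 had a median of 0.94 and reached 1.82, above the 0.82 of circRNA 1. The 7 circRNAs were thus not those with the widest mean differences.

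On the deposited values IRI replicate 3 was the lowest IRI array for 6 of the 7 circRNAs and IRI replicate 2 the highest for 7 of 7, for circRNA 1 with almost the same value as IRI replicate 1. On the processed signals IRI replicate 3 was the lowest for 7 of 7 and IRI replicate 2 the highest for 5, with IRI replicate 1 the highest for circRNAs 1 and 3. Among all 10536 circRNAs on the deposited values, IRI replicate 3 was the lowest in 31.1% and IRI replicate 2 the highest in 32.8%. IRI replicate 3 had 44 spots marked as outliers, against 3 to 16 on the other arrays, none of them a spot of the 7 circRNAs, and whether this has a part in its lower values was not tested. Taken alone, it was 0.15 to 0.55 above the sham mean and 0.13 to 0.82 above the IPC mean. Without it the IRI mean was 0.66 to 1.38 above sham and 0.83 to 1.18 above IPC. The IRI group was the most variable of the 3 for 6 of the 7 circRNAs, with SDs of 0.153 to 0.603 and a median of 0.374. The median SD was 0.213 in sham and 0.201 in IPC. Over all 10536 circRNAs it was 0.214 in IRI, 0.192 in sham and 0.197 in IPC.

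IRI replicate 2 was read in scan 2, so the differences were also taken within each scan. Within scan 1, with 2 arrays per group, the IRI mean was 0.49 to 0.96 above sham and 0.38 to 0.79 above IPC. The rule itself makes every difference within a scan positive, so only the sizes describe the scans. Only circRNAs 1 and 3, 2 of the 7, passed 0.585 in both. Within scan 2, with 1 array per group and no replicate check, IRI was 0.88 to 1.22 above sham and 1.1 to 1.33 above IPC. Both differences were larger in scan 2 than in scan 1 for 7 of 7 circRNAs. On these deposited values the scan 2 array was above the mean of its group's scan 1 arrays for 7 of 7 circRNAs in IRI (on the processed signals for all but circRNA 3, at -0.11), for 3 in sham and for 2 in IPC. With 1 array of each group in scan 2, the scan and the liver read in it cannot be told apart. These counts were not taken over all circRNAs, so they are not shown to be particular to the 7.

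**Figure D3:**
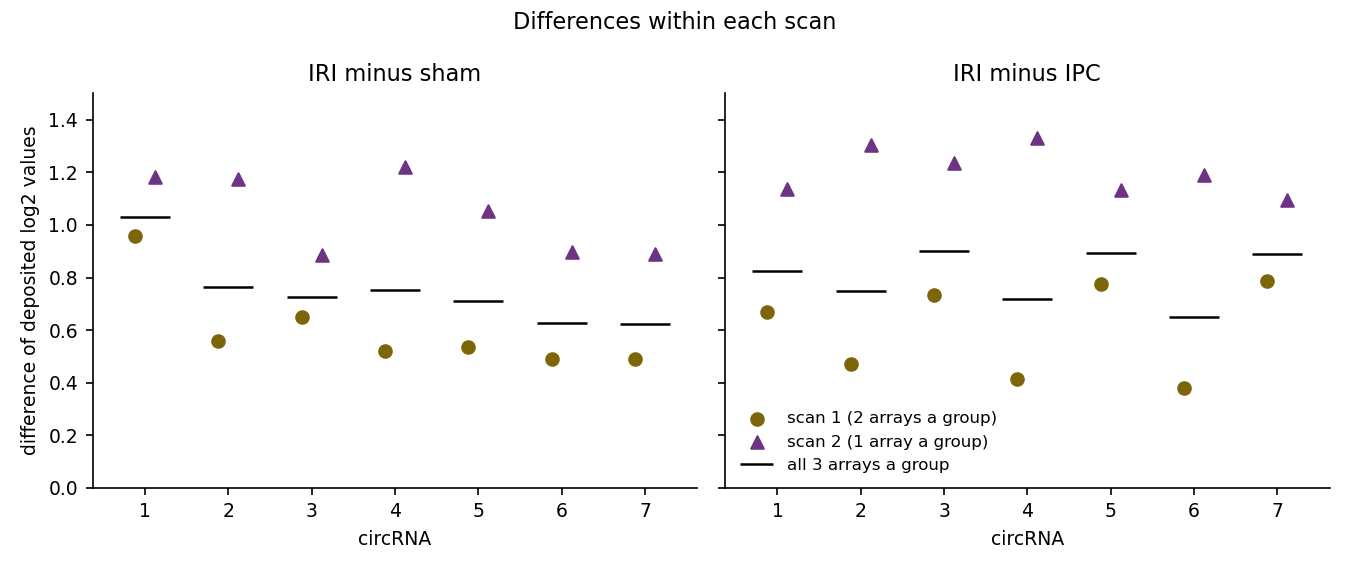
Differences of deposited log2 values within scan 1 (circles, 2 arrays a group), within scan 2 (triangles, 1 array a group) and over all arrays (lines), for IRI minus sham on the left and IRI minus IPC on the right. The rule itself places all points above 0, and every triangle lies above the circle of the same circRNA.

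The groups were then compared in limma on all 9 arrays, on the background-corrected processed signals of the scanner files, quantile normalized on the log2 scale. A circRNA was called when it changed by 1.5-fold or more and its P, before any adjustment, was below 0.05. These are also the criteria named in the methods. In IPC vs. sham, 247 of the 10534 circRNAs tested, or 2.34%, were called, and 0 of the 7 were. At a share that low, 0 is the usual count for any 7 circRNAs, so it tells nothing particular about these. The count over all circRNAs was 35 with normexp correction and 620 without IPC replicate 3, and 0 of the 7 were called in either. The 7 had a median difference, IPC minus sham, of 0.02, against a median of -0.03 over all circRNAs tested. The median of the 7 was -0.25 without IPC replicate 1 and 0.14 on scan 1 alone. With all 9 arrays their differences were -0.38 to 0.39. The IPC and sham means thus lay within 1.5-fold of each other for all 7. The 95% interval reached beyond a 1.5-fold change in at least 1 direction for 7 of 7 circRNAs. A change of that size thus lay within the error of the fit. That error pools the spread of all 9 arrays, the often more variable IRI arrays included, and is not that of the sham and IPC arrays alone. The Benjamini-Hochberg adjusted P from limma was 1.00 for 7 of 7. It was below 0.05 for none of the 10534 (0.00%), 253 of which had an unadjusted P below 0.05.

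CircRNA 7 came nearest to a difference between IPC and sham. Its processed signal was 5.96 ± 0.11 (SD) in sham and 5.58 ± 0.055 (SD) in IPC, a difference of -0.38 with a standard error of 0.21 and a 95% interval of -0.86 to 0.10. The unadjusted P from limma was 0.105, and 0.0661 with the scan as a block. It was below 0.05 in 3 of the 21 alternatives, at 0.0333 with normexp correction, 0.0423 on uncorrected spot medians and 0.00572 in the methods' t-test across 3 against 3 arrays, where the difference was -0.18, -0.24 and -0.38, each below the limit of 1.5-fold. The adjusted P for circRNA 7 was 0.872 or more in all 21 alternatives. CircRNA 1 had the largest difference in the other direction, 0.39 with a standard error of 0.46 and a 95% interval of -0.63 to 1.41. Its sham arrays lay at 4.95, 3.85 and 5.22. Without sham replicate 2, the only array on which circRNA 1 was not well above background, the difference was -0.02, with an interval of -1.02 to 0.98, and without sham replicate 3 it was 0.66. For circRNAs 2, 4 and 6 the difference was 0.02, 0.03 and 0.04, and for circRNAs 3 and 5 it was -0.25 and -0.28. These values also moved over the 21 alternatives. CircRNA 2 ranged from -0.25 to 0.27, circRNA 4 from -0.16 to 0.26 and circRNA 6 from -0.19 to 0.26. CircRNA 3 ranged from -0.43 to -0.04 and circRNA 5 from -0.39 to -0.10.

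**Figure D4:**
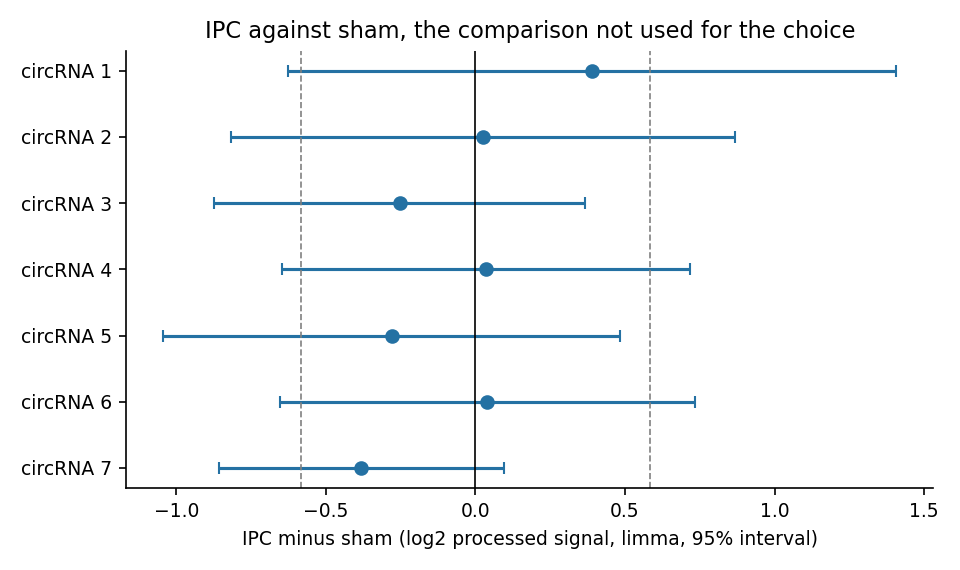
IPC minus sham on the log2 processed signal for the 7 circRNAs, with 95% intervals from limma on 9 arrays and dashed lines at a 1.5-fold change in either direction. Every interval includes 0 and every interval crosses at least 1 dashed line.

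For the comparisons that the choice had used, the same fit called 7 of 7 as increased in IRI vs. sham, where 252 of 10534 circRNAs (2.39%) were, and 7 of 7 as decreased in IPC vs. IRI, where 160 of 10535 (1.52%) were. Nothing can be read from the counts of the 7, since the same arrays chose them. They also fell to 4 of 7 in both comparisons without IRI replicate 2, where 169 of all circRNAs were increased and 111 decreased. The number increased over all circRNAs in IRI vs. sham was 73 after normexp correction and 357 in a fit that blocked on the scan. The number decreased in IPC vs. IRI was 30 and 274 in these fits. The latter was also 311 without IRI replicate 3 and 261 without IPC replicate 3. The differences on the processed signals were larger than on the deposited values, at 0.78 to 1.52 for IRI minus sham and -1.26 to -0.90 for IPC minus IRI. No circRNA on the array had an adjusted P from limma below 0.05 in either comparison, while 439 had an unadjusted P below 0.05 in IRI vs. sham and 385 in IPC vs. IRI.

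On the processed signals, 6 of the 7 circRNAs kept their IRI arrays above all others. For circRNA 2 they overlapped, as IRI replicate 3 at 4.80 was below IPC replicate 1 at 4.83. The gap of circRNA 1 was 0.013, which was below the spot SD of every array. The gap of circRNA 6, 0.152, was below the highest spot SD of 0.160, and those of circRNAs 3, 4, 5 and 7, at 0.335, 0.221, 0.182 and 0.567, were above it. On the deposited values only the gaps of circRNAs 3 and 7 were above that SD. The spot SD was taken on processed signals before normalization, where differences were larger, so it is not on the scale of the deposited values. The spot SD covers the noise of spots within an array and not the spread between livers, and a gap above 0 is what the rule asked for, so these gaps are a description.

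All 9 arrays detected 6 of the 7 circRNAs well above background, and 8 arrays detected circRNA 1. None of their spots was marked as an outlier on any array. The spots were in rows 7 to 179 and columns 10 to 67 of the array.

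The same rule was applied to the other groups and to the opposite direction. It chose 23 circRNAs that were lower in IRI than in sham and IPC, 9 that were higher and 18 that were lower in sham, and 6 that were higher and 0 that were lower in IPC. With the limits on the means alone, higher in IRI was the most frequent pattern, with 116 circRNAs against 74 lower in IRI, 40 higher in IPC and 1 to 26 for the other patterns. With the condition on overlap alone it was the least frequent, with 64 circRNAs against 65 to 100 for the other patterns. The chosen set also moved with single arrays. Without IRI replicate 3 the rule was met by 143 circRNAs, the 7 among them, and without IRI replicate 2 by 18, of which 2 were among the 7. Without IRI replicate 1 it was met by 34 and without IPC replicate 1 by 26, all 7 among them both times. On the arrays of scan 1 alone it was met by 18, 2 of them among the 7.

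**Figure D5:**
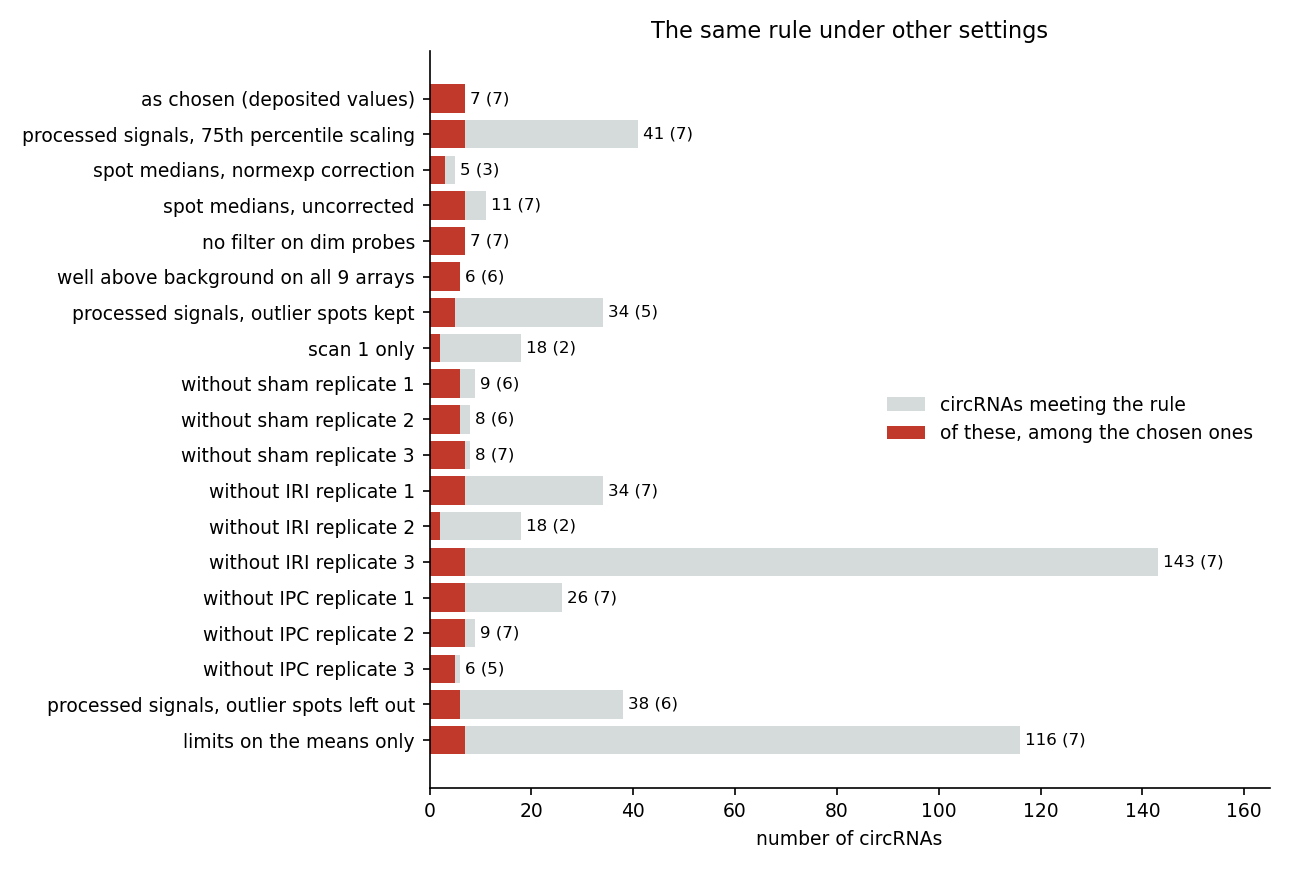
Number of circRNAs that meet the rule under each setting (grey bars, first number) and how many of them are among the 7 chosen ones (red bars, number in brackets). The set grows most without IRI replicate 3, to 143, and retains 2 of the 7 without IRI replicate 2 or on scan 1 alone.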

How the data were processed

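The authors deposited, for each of 9 arrays, the Agilent Feature Extraction 11.0.1.1 output, from which the processed signal (a background-corrected linear intensity), the spot and local background medians and the flags were used. They also deposited a table of log2 values, quantile normalized and with medians of 5.36 to 5.38. How its background was corrected is not stated in these sources. No per-sample column was left unused.

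The members were found on the deposited log2 values. The fit used log2 processed signals without outlier spots, quantile normalized over the 9 arrays, and limma 3.58.1 in R 4.3.3 on circRNAs well above background on at least 3 arrays, with 6 residual and 3.80 prior degrees of freedom. Values of the members were summarised with pandas 2.3.3. The fit was tested on simulated data. The number of arrays limits the precision. Depth does not apply to arrays.

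The members and lists were chosen with earlier results of these data known. The 7 members were all described, in order of the smaller of their 2 differences, with IDs for 2 of them. Lists of host genes and cell type markers were not used, because no table used here pairs the IDs with genes.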

Additional observations from a re-analysis of the deposited data

How the results depend on the processing

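In IPC vs. sham, 0 of the 7 circRNAs were called under each of 21 alternatives, and the smallest adjusted P of a member was 0.872. The number called over all circRNAs, 247, was 35 with normexp correction of the spot medians (offset 50), 67 with uncorrected spot medians, 87 on the deposited values, 104 when circRNAs had to be well above background on all 9 arrays, 147 with the methods' t-test, 437 with the scan as a block and 470 on scan 1 alone. It was 173 to 620 with 1 array left out, the highest without IPC replicate 3. With the replicate number as a block it was 201. Same-numbered arrays had deviations from their group means that correlated at -0.56 to 0.53, and differently numbered arrays of different groups at -0.59 to 0.71. The arrays of scan 2, with different numbers, correlated at 0.61 to 0.71 with each other. Number and scan are thus mixed, and these correlations cannot tell whether the numbers paired the samples. Blocking on the replicate number left 7 members called as increased in IRI vs. sham, with 201 of 10534 circRNAs. It left 6 as decreased in IPC vs. IRI, with 141 of 10535, where circRNA 1 had an unadjusted P from limma of 0.0514. Over the 21 alternatives 3 to 7 members were called in each of these comparisons. In IRI vs. sham it was 3 with normexp (73 increased over all circRNAs), 4 with the methods' t-test (125) and 3 on scan 1 alone (198). In IPC vs. IRI it was 5 (30 decreased), 5 (64) and 3 (203).

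The rule was met by 7 circRNAs on the deposited values, 38 on the processed signals (6 of the 7 among them), 41 on these when scaled to the 75th percentile instead (7), 34 on these with outlier spots kept (5), 5 with normexp (3 of the 7), 11 on uncorrected spot medians, 116 without the condition on overlap, 18 on scan 1 alone and 6 to 143 with 1 array left out. The 41 and 34 change the values and 1 more choice, and are to be set against 38. The settings that gave 38, 116 and 18 were chosen after seeing the data. The median difference of the members was 0.94 for IRI minus sham and -1.13 for IPC minus IRI, and with normexp it was 0.51 and -0.60. With uncorrected spot medians the second was -0.76. Why these values moved was not tested, except that fewer arrays or circRNAs entered some settings.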
